A study of Mus musculus with 4 samples.

Results

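The replication-dependent histone genes were taken as every gene whose symbol in the deposited gene table starts with Hist1h, Hist2h, Hist3h or Hist4h. The table held 67 such symbols among 32285 genes, and 61 of them had at least 10 UMIs over the 4 libraries. A UMI is a molecular barcode that counts 1 captured RNA molecule, whatever the length of the RNA. The 61 genes encode histone H1 (6 genes), H2A (16), H2B (16), H3 (11) and H4 (12). Of these genes 49 lie on chromosome 13, 9 on chromosome 3, 2 on chromosome 11 and 1 on chromosome 6. The genes just inside the minimum were Hist1h2aa with 19 UMIs, Hist2h3b with 20, Hist1h2bk with 22 and Hist1h2ag with 28. The 6 symbols below it were Hist1h2bq with 2 UMIs, Hist1h3h with 3, Hist1h2ao and Hist2h2aa2 with 4 each, Hist1h4m with 5 and Hist1h2ba with 6.

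The cells were C3H10T1/2, a clonal mouse mesenchymal progenitor line that can turn into muscle and fat cells. They carried a puromycin-selected lentiviral transgene, driven by an EF1 promoter, for human H3C2 with C-terminal HA and FLAG tags, either wild type (H3WT) or with cysteine in place of arginine 26 (H3R26C). The mouse histone genes of the line were present in all 4 libraries. Cells of each genotype received 5-Azacytidine (5-Aza), an inhibitor of DNA methyltransferases that induces differentiation in this line, or DMSO as the vehicle. The 5-Aza cells had 3 μM for 24 h and were collected on day 28, and the day of the DMSO collection is not given in the sources used here. Each of the 4 conditions was 1 library on a droplet platform. No test between conditions was therefore possible, and every interval below is a 95% interval for counting error only.

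Histone H1 binds the linker DNA between nucleosomes, and H2A, H2B, H3 and H4 form the nucleosome core. The replication-dependent genes supply most of this protein while DNA is copied, and their messages normally end in a conserved stem-loop bound by Slbp in place of a poly(A) tail. The messages are destroyed when S phase ends. Some of these genes, Hist1h1c and Hist1h2bc among them, are known to give polyadenylated messages in cells that have left the cycle. Droplet libraries usually prime on poly(A), so the counts below are those of molecules the libraries captured and not of all histone message. The priming chemistry of these libraries is not given in the sources used here.

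The stem-loop is shown for 9 of the genes the results turn on, because it is the feature that sets this class of message apart. The letters come from the GENCODE M21 transcripts on GRCm38, are written 5′ to 3′ on the strand of the gene, and have the paired stem bases in capitals.
Hist1h1c, chr13:23739509-23739530, plus strand: aaaGGCTCTtttcAGAGCCacc
Hist1h1e, chr13:23621779-23621800, minus strand: aaaGGCTCTtttcAGAGCCacc
Hist1h2ae, chr13:23570665-23570686, minus strand: aaaGGCTCTtttcAGAGCCatt
Hist2h2ac, chr3:96220415-96220436, minus strand: aaaGGCTCTttttAGAGCCacc
Hist1h3g, chr13:23535886-23535907, plus strand: aaaGGCTCTtcttAGAGCCacc
Hist1h3e, chr13:23561900-23561921, minus strand: aacGGCTCTtttaAGAGCCacc
Hist2h3c1, chr3:96247324-96247345, plus strand: aaaGGCTCTtttcAGAGCCacc
Hist1h4i, chr13:22040963-22040984, minus strand: aaaGGCCCTttttAGGGCCacc
Hist1h4d, chr13:23581947-23581968, plus strand: aaaGGCCCTtttcAGGGCCact
All 9 lie in the 3′ UTR, and the stem of the H4 genes differs in its letters from that of the other 7.

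An exact stem of 6 paired bases around a loop of 4 was found in the listed transcripts of 43 of the 61 genes. For 23 genes a listed transcript ran on for more than 100 bases past the stem-loop, by 1167 bases in Hist2h3c1, 1153 in Hist1h1e, 840 in Hist1h1c, 770 in Hist1h4d and 330 in Hist1h4i. It ran on for only 57 bases in Hist2h2ac and 47 in Hist1h3g. A polyadenylation signal, AATAAA or ATTAAA, stood after the stem-loop in 17 genes. No exact match was found in the listed transcripts of Hist1h1a, Hist1h1b and Hist1h2bc, which does not show that their messages lack one.

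Promoters of 4 H1 genes and Hist1h4i are shown because these genes lie far apart in the order by cell cycle state given below. Each is the 120 bases before the start in RefSeq on GRCm38.p6, on the strand of the gene, with 3 motifs in capitals. These are the TATA box TATAAA, the CCAAT box on either strand and the H1 box AAACACA.
Hist1h1b, chr13:21780626-21780745, minus strand: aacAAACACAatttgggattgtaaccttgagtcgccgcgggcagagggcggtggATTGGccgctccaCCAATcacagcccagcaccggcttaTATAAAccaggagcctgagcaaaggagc
Hist1h1a, chr13:23763548-23763667, plus strand: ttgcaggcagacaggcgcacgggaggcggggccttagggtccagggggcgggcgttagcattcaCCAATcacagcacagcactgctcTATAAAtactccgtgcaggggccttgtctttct
Hist1h1e, chr13:23622559-23622678, minus strand: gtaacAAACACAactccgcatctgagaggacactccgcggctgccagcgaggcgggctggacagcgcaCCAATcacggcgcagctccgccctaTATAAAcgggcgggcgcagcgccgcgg
Hist1h1c, chr13:23738687-23738806, plus strand: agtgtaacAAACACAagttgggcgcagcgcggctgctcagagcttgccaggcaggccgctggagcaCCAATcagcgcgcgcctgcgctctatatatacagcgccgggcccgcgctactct
Hist1h4i, chr13:22041363-22041482, minus strand: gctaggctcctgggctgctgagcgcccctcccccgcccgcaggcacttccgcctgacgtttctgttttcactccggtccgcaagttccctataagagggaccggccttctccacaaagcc
None of the 3 motifs was found in the window of Hist1h4i, and the H1 box was found in 3 of the 4 H1 windows shown.

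Over the 250 bases before the start and on both strands, 62 of the 67 symbols had a promoter in the table. CCAAT was in 51 of them, against 33.8% of 32817 promoters of all genes, and TATAAA in 29, against 12.4%. By histone type, CCAAT was in 6 of 6 H1, 18 of 18 H2A, 16 of 16 H2B, 8 of 10 H3 and 3 of 12 H4 promoters. The H1 box was in 5 of 6 H1 promoters, against 6.25% of all promoters. The octamer ATTTGCAT was in 7 of 18 H2A and 6 of 16 H2B promoters, in none of the other types, and in 1.6% of all promoters. These are letter matches, and no factor was measured on them.

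The libraries held 6239 barcodes for H3WT DMSO, 15002 for H3WT 5-Aza, 6540 for H3R26C DMSO and 12110 for H3R26C 5-Aza. The filter of the study (at least 5000 UMIs and 1500 genes, at most 20% mitochondrial UMIs) left 3710, 5993, 4727 and 7619 cells, with 84060490 to 110712425 UMIs per library. Median UMIs per kept cell ran from 13123 to 22420, highest in H3WT DMSO and lower with 5-Aza in each genotype. Pairs of libraries shared 24 to 58 kept barcodes. The summed level of the mesenchymal markers was 13759 to 14807 CPM (UMIs scaled to 1000000 in all), and that of the muscle markers was 2159 and 2648 CPM with 5-Aza against 29.0 and 22.7 CPM with DMSO. Endothelial and blood markers stayed at 12.1 CPM or lower in all 4 libraries.

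Over all kept cells the 61 genes together made 1094 CPM in H3WT DMSO (1087 to 1101), 953 in H3WT 5-Aza (946 to 960), 980 in H3R26C DMSO (973 to 986) and 659 in H3R26C 5-Aza (654 to 664). The count was very uneven between genes. The 3 leading genes held 61.5%, 55.3%, 48% and 52.3% of the histone UMIs in these libraries, and the 10 leading genes 85.4% to 88.6%. At the other end, 19 genes were under 1 CPM in every library, while 13 were at 5 CPM or more in every library. Reads that fit several genes are not counted, and 22 of the 61 genes share over 50% of their 90-base stretches with another transcript, so the levels of near-identical copies are uncertain.

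**Figure D1:**
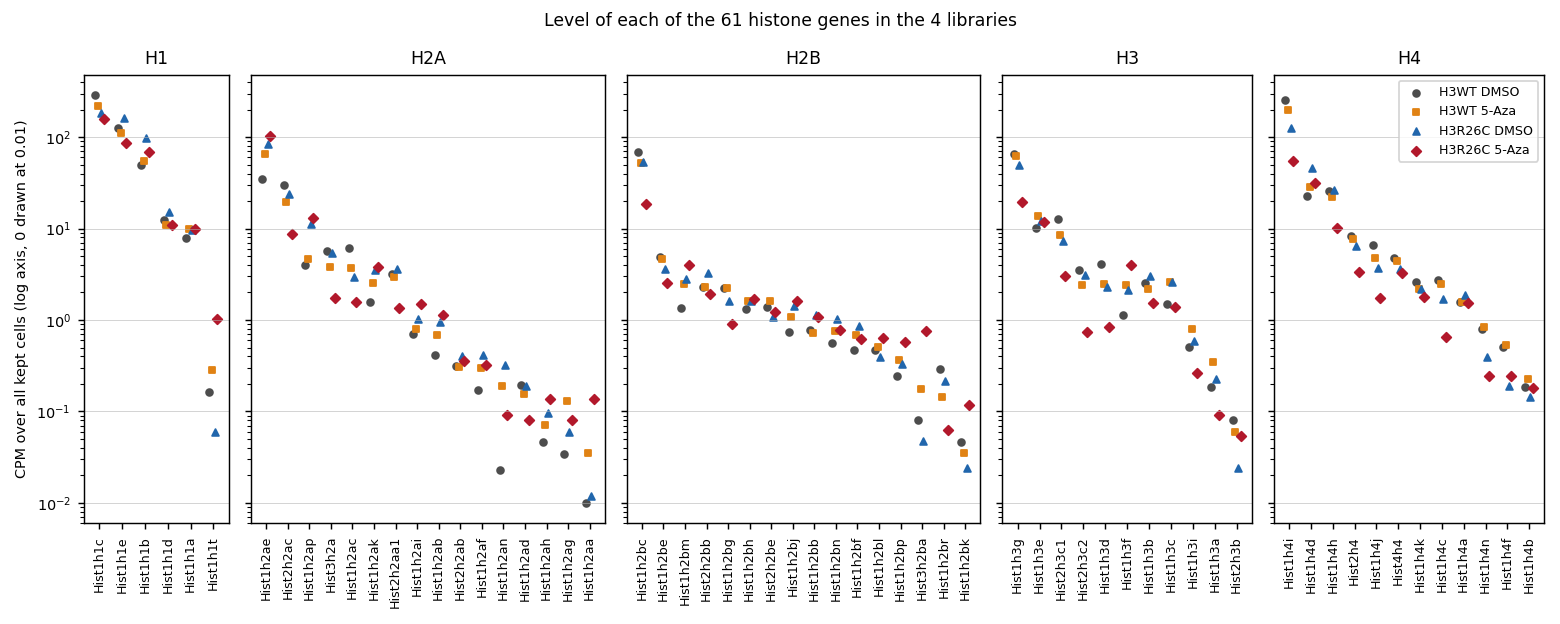
CPM of each of the 61 histone genes over all kept cells, on a log axis, in panels by histone type and with 1 symbol per library. H1 and H4 hold the highest points (Hist1h1c at 156 to 289 CPM, Hist1h4i at 54.6 to 257 CPM), and the H3R26C 5-Aza diamonds are the lowest of the 4 for 30 of the 61 genes. The same share over all genes was not counted.

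Among the linker histones, Hist1h1c (ENSMUSG00000036181, encoding H1.2) stood at 289 CPM in H3WT DMSO, 221 in H3WT 5-Aza, 184 in H3R26C DMSO and 156 in H3R26C 5-Aza. It was the most counted histone gene in each of the 4 libraries. Hist1h1e (H1.4) stood at 126, 110, 161 and 86.7 CPM in the same order, and Hist1h1b (H1.5) at 49.7, 55.0, 97.0 and 69.0 CPM. Unlike Hist1h1c, these genes were highest in H3R26C DMSO. Hist1h1d (H1.3) was at 10.9 to 15.3 CPM and Hist1h1a (H1.1) at 7.82 to 9.88 CPM. Hist1h1t, the testis H1, was at 0.0595 to 1.04 CPM.

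Among the core histones, the same gene led its type over all kept cells of each library. The lead was narrow for H2A in H3WT DMSO, where Hist1h2ae gave 39.9% and Hist2h2ac 34.3% of the UMIs. Hist1h4i made 257 CPM in H3WT DMSO, 196 in H3WT 5-Aza, 125 in H3R26C DMSO and 54.6 in H3R26C 5-Aza. Hist1h2bc led H2B at 68.5, 51.8, 53.8 and 18.3 CPM, and Hist1h3g led H3 at 65.4, 62.9, 50.1 and 19.4 CPM. These 3 leaders had their lowest level in H3R26C 5-Aza. Hist1h2ae led H2A with the opposite order, at 34.7, 64.8, 84.1 and 102 CPM. The next H2A gene, Hist2h2ac, stood at 29.8, 19.6, 23.9 and 8.82 CPM, so the leading pair of H2A genes ran in different directions over the 4 libraries.

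The other genes named by the rule lay lower. In H3, Hist1h3e was at 10.2 to 13.8 CPM, Hist2h3c1 at 3.01 to 12.6 and Hist2h3c2 at 0.741 to 3.51. Hist2h3c1 shares all of its 90-base stretches with another transcript. In H4, Hist1h4d was at 22.5 to 46.4 CPM, highest in H3R26C DMSO, and Hist1h4h at 10.1 to 26.2. In H2A and H2B, Hist1h2ap was at 3.99 to 13.1 CPM, Hist1h2ac at 1.57 to 6.15, Hist1h2ak at 1.58 to 3.82, Hist1h2be at 2.57 to 4.86 and Hist1h2bm at 1.36 to 3.97. Whether counts of the mouse H3 genes hold reads of the human H3C2 transgene was not tested.

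Cells were sorted by cycle genes that hold no histone, so that histone counts could be read within a state. Each cell was thinned to 5000 UMIs, and 12 S-phase and 12 G2 and mitosis (G2M) genes were scored as present or not. Cells with at least 3 S genes were called the S state, split into S only and S and G2M by whether at least 3 G2M genes were also present. Cells with none of the 24 genes were the cells with no cycle gene. The S state held 123 cells in H3WT DMSO (3.32%, 2.76% to 3.94%), 290 in H3WT 5-Aza (4.84%, 4.31% to 5.41%), 343 in H3R26C DMSO (7.26%, 6.53% to 8.03%) and 836 in H3R26C 5-Aza (10.97%, 10.3% to 11.7%). Cells with no cycle gene made up 66.2%, 58.7%, 58.9% and 42.5%. The share of S-state cells was thus higher in H3R26C than in H3WT in each treatment, beyond counting error but with 1 library per condition.

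The histone level was highest in cells that had S and G2M genes together. There the 61 genes summed to 2720 CPM in H3WT DMSO, 3115 in H3WT 5-Aza, 3073 in H3R26C DMSO and 2159 in H3R26C 5-Aza. In cells with no cycle gene they summed to 1043, 835, 751 and 434 CPM. Being few, the S and G2M cells held 9.67%, 16.3%, 27.2% and 32.9% of the histone UMIs of their library, against 60.8%, 49.8%, 42.3% and 25.6% in cells with no cycle gene. The S and G2M cells were thus 2.61, 3.73, 4.09 and 4.98 times as high, and the S state as a whole 2.10, 3.03, 3.32 and 3.64 times. Cells with S genes only were lower, at 715, 736, 524 and 338 CPM, below the cells with no cycle gene in all 4 libraries. Cells with G2M genes only were at 1017, 1101, 1577 and 929 CPM. The S and G2M cells were also the deepest, with a median of 20043 to 38668 UMIs against 12435 to 21988 in cells with no cycle gene. Their median mitochondrial percent was 2.50, 2.13, 1.76 and 1.86, against 3.94, 2.95, 2.90 and 2.76 in cells with no cycle gene. The part of depth, mitochondrial share and doublets in these values was not tested. On the log2 scale the S-state difference in H3WT DMSO went from 1.07 to 0.67 without the 5% of cells with most UMIs. Phase scores were also computed here with scanpy from 43 S and 54 G2M genes, and they are not the scores of the study. With them, S against G1, the 4 libraries were at 0.79, 1.06, 1.33 and 1.04, in place of 1.07, 1.60, 1.73 and 1.86. H3R26C 5-Aza was then no longer the highest.

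**Figure D2:**
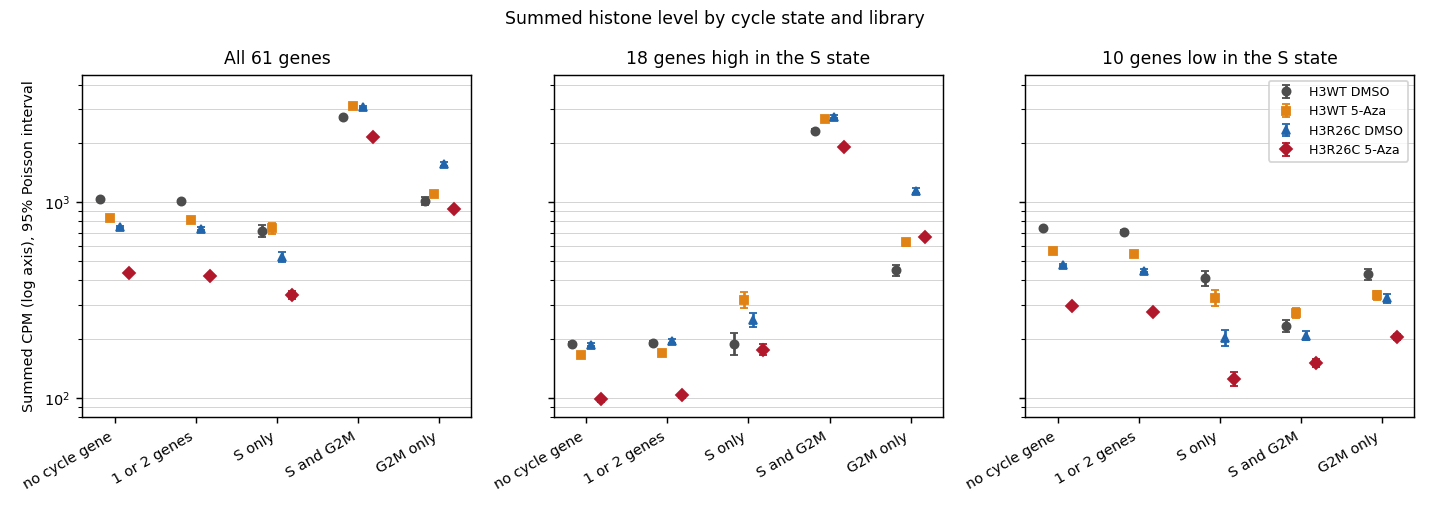
Summed CPM on a log axis by cycle state for all 61 genes, for 18 genes high in the S state and for 10 low in it, with 1 symbol per library and 95% Poisson intervals for counting error. The 18 genes peak in S and G2M cells at 1911 to 2743 CPM and the 10 genes have their highest levels in cells with no cycle gene, at 296 to 738 CPM.

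The types differed in how they moved with the state. Between cells with no cycle gene and S and G2M cells, H2A went from 66.8 to 600 CPM in H3WT DMSO, 51.4 to 970 in H3WT 5-Aza, 56.9 to 875 in H3R26C DMSO and 31.6 to 767 in H3R26C 5-Aza. H1 went from 441 to 1687, 337 to 1640, 320 to 1734 and 224 to 1070 CPM in the same order. H3 went from 98.2 to 181, 92.5 to 165, 77.0 to 132 and 37.2 to 87.5 CPM. H2A, H1 and H3 were thus higher in the S and G2M cells of each library.
H2B and H4 behaved otherwise. H2B was at 86.2 and 84.0 CPM in the cells with no cycle gene and the S and G2M cells of H3WT DMSO, 68.8 and 107 in H3WT 5-Aza, 71.7 and 87.8 in H3R26C DMSO and 33.5 and 64.9 in H3R26C 5-Aza. H4 was at 351 and 168, 285 and 233, 225 and 244, and 107 and 168 CPM. The H4 sum was therefore lower in S and G2M cells in the 2 H3WT libraries and higher in the 2 H3R26C libraries. As a share of the histone UMIs of H3WT DMSO, H4 went from 33.6% in cells with no cycle gene to 6.19% in S and G2M cells, H2A from 6.41% to 22% and H1 from 42.3% to 62%.

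The sums hid a split between genes of 1 type. Of the 51 genes with at least 50 UMIs over these states, 18 were at least 2-fold higher in the S state in all 4 libraries on log2(CPM + 1), and 4.38% of 14712 genes with as many UMIs were. Another 10 were lower in all 4 libraries (37% of those genes were), 3 of them by at least 2-fold (1.16%), namely Hist2h3c1, Hist1h4i and Hist1h2bc, and 23 were mixed. The share of histone genes that were lower in all 4 libraries was thus below that of genes at large. Library by library, 20, 26, 26 and 23 of the 61 genes were at least 2-fold higher in the S state, where 6.17%, 4.88%, 5.69% and 4.74% of all genes were. At least 2-fold lower were 8, 3, 5 and 4, where 3.86%, 2.57%, 4.88% and 4.17% of all genes were. The 18 genes high in the S state were 4 of H1, 5 of H2A, 5 of H2B, 3 of H3 and 1 of H4. The 10 genes low in it were 1 of H1, 2 of H2A, 1 of H2B, 2 of H3 and 4 of H4. These classes were formed from the values they describe, so they carry no test. They rest on the S state as a whole, and S only cells can differ from it. In S only cells Hist1h1e stood at 83.8, 110, 91.4 and 45.7 CPM, against 108, 81.4, 105 and 36.1 in cells with no cycle gene. Hist1h1b stood there at 34.0, 59.7, 54.8 and 28.3 CPM, against 18.4, 13.8, 15.6 and 7.86.

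**Figure D3:**
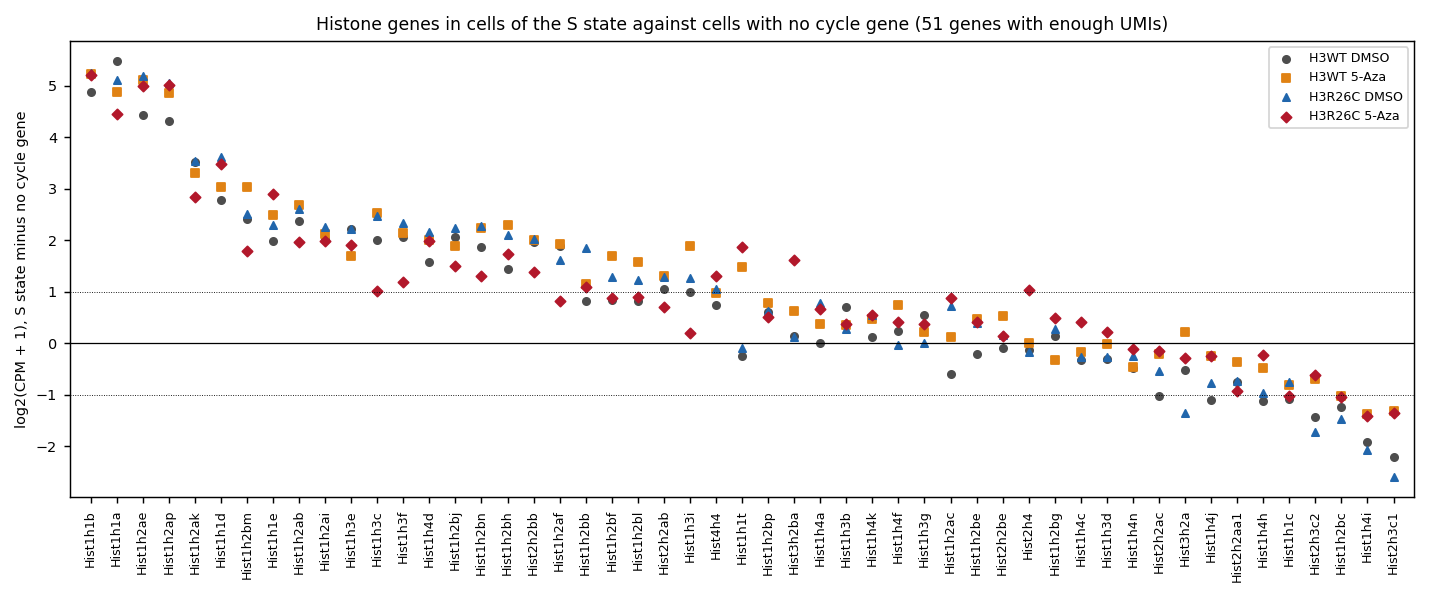
Difference of log2(CPM + 1) between S-state cells and cells with no cycle gene for the 51 histone genes with enough UMIs, ordered by the mean of the 4 libraries, with 1 symbol per library and dotted lines at 2-fold. Hist1h1b, Hist1h1a, Hist1h2ae and Hist1h2ap stand apart at the left with means of 4.81 to 5.14, and Hist2h3c1 and Hist1h4i end the row at −1.87 and −1.70.

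Hist1h1b had the largest mean difference of all, 5.14 on the log2(CPM + 1) scale. It went from 18.4 CPM in cells with no cycle gene to 765 in S and G2M cells of H3WT DMSO, 13.8 to 720 in H3WT 5-Aza, 15.6 to 796 in H3R26C DMSO and 7.86 to 465 in H3R26C 5-Aza. Hist1h1a, whose window above holds no H1 box, went from 1.59 to 152, 2.44 to 131, 0.969 to 85.3 and 1.28 to 70.0 CPM. Hist1h2ae went from 15.3 to 468, 17.3 to 823, 13.9 to 700 and 12.9 to 622 CPM. In each of these 3 genes every library had its S and G2M level far above its level in cells with no cycle gene. Hist1h2ap had a mean difference of 4.81 and Hist1h2ak of 3.31.

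Hist1h1e was high in both settings. It stood at 108 CPM in cells with no cycle gene and 553 in S and G2M cells of H3WT DMSO, 81.4 and 577 in H3WT 5-Aza, 105 and 640 in H3R26C DMSO, and 36.1 and 383 in H3R26C 5-Aza. Hist1h4d, the H4 gene of this class, stood at 20.1 and 78.7, 22.0 and 112, 30.5 and 171, and 18.6 and 103 CPM. It was the only one of 12 H4 genes at least 2-fold higher in the S state in all 4 libraries.

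The genes low in the S state included the leaders of H1, H2B and H4. In CPM, Hist1h1c was lower in S and G2M cells than in cells with no cycle gene in every library. It stood at 304 CPM in cells with no cycle gene and 129 in S and G2M cells of H3WT DMSO. The other pairs were 233 and 135 in H3WT 5-Aza, 194 and 121 in H3R26C DMSO, and 176 and 90.4 in H3R26C 5-Aza. Hist1h4i stood at 274 and 48.5, 215 and 69.1, 146 and 29.7, and 66.5 and 23.8 CPM. Hist1h2bc stood at 71.6 and 25.7, 54.2 and 24.2, 59.9 and 16.6, and 22.3 and 10.6 CPM. CPM are shares of all UMIs, and the S and G2M cells were deeper in each library. A lower CPM in them thus need not mean fewer UMIs per cell, which were not compared. The 5 lowest mean differences were those of Hist2h3c1 (−1.87), Hist1h4i (−1.70), Hist1h2bc (−1.19), Hist2h3c2 (−1.11) and Hist1h1c (−0.92). Hist1h3g, the leader of H3, was in neither class, with a mean difference of 0.29.

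The share of cells with a UMI was taken for a gene from each end of this order. After thinning to 5000 UMIs, Hist1h1b was seen in 8.06%, 6.82%, 7.29% and 4.11% of cells with no cycle gene and in 72.1%, 64.2%, 65.3% and 59.2% of S and G2M cells, in the library order above. Without thinning these shares were 24.4%, 13.8%, 17.4% and 9.58%, and 82.6%, 81.6%, 86.1% and 74.2%. In muscle-marker cells, which should not copy DNA, it was seen after thinning in 3.57% of cells with H3WT 5-Aza and 5.46% with H3R26C 5-Aza, with median depths of 13406 and 17913 UMIs. The shares in cells with no cycle gene of these libraries were 6.82% and 4.11%. In CPM, Hist1h1b was at 11.5 and 14.1 in the muscle-marker cells, against 13.8 and 7.86 in cells with no cycle gene. Muscle-marker cells were chosen whatever their cycle state, so they can hold cycling cells and doublets and can overlap with the cells with no cycle gene. They therefore cannot tell whether the Hist1h1b counts of cells with no cycle gene are background. The DMSO libraries held no muscle-marker cells to compare with. Hist1h4i ran the other way, in 67.3%, 57.2%, 45.3% and 23.8% of cells with no cycle gene and 17.4%, 21.3%, 9.16% and 9.09% of S and G2M cells (without thinning 93.2%, 80.7%, 75.6% and 42.8%, and 65.1%, 50.7%, 44.2% and 28.9%). It was seen after thinning in 53.0% and 17.6% of the muscle-marker cells of the 2 libraries with 5-Aza. Between cells with no cycle gene and S and G2M cells of a library the intervals of the Hist1h4i shares did not overlap. No cell type that should lack Hist1h4i was at hand, so these are shares of cells with a UMI and not of cells that express it.

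**Figure D4:**
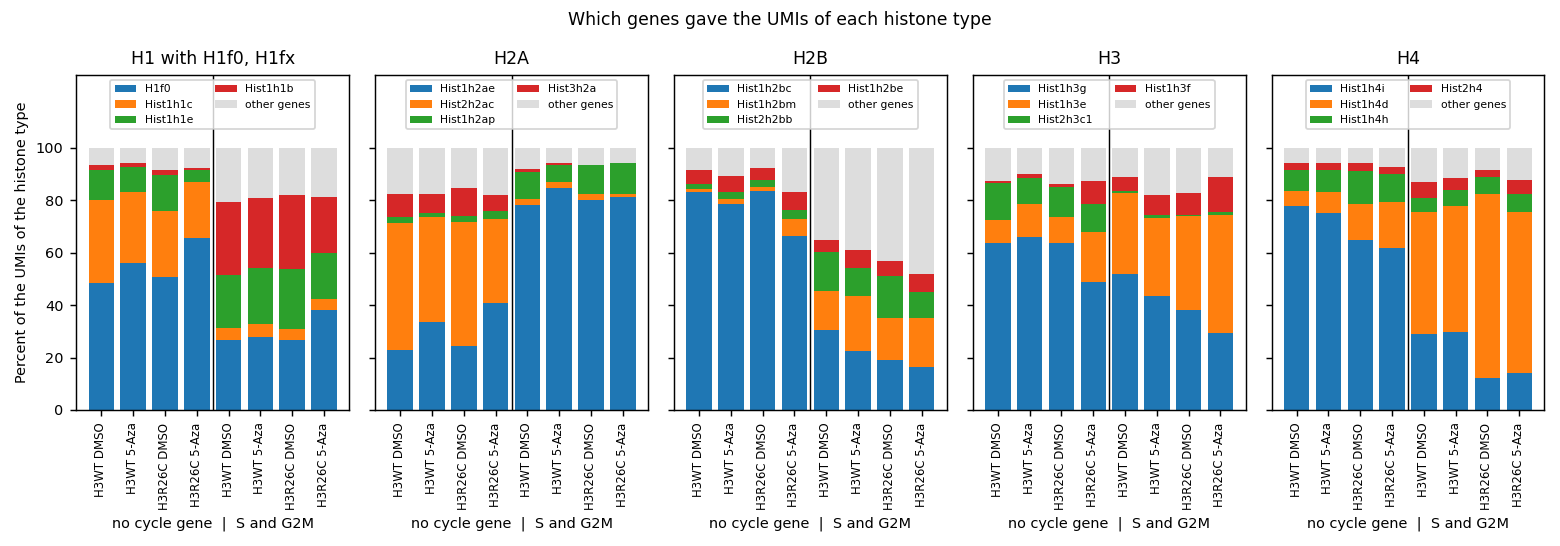
Percent of the UMIs of each histone type that came from its leading genes, with 4 bars per panel for cells with no cycle gene at the left of the line and 4 for S and G2M cells at the right, 1 per library. In H4, Hist1h4i gives way to Hist1h4d, and in H2A, Hist2h2ac gives way to Hist1h2ae; the H1 panel also counts the replication-independent H1f0 and H1fx.

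The make-up of each type differed between the states. In H4 the leading gene changed in each library. Hist1h4i gave 78.0%, 75.3%, 64.9% and 62.0% of the H4 UMIs in cells with no cycle gene and 28.8%, 29.7%, 12.1% and 14.1% in S and G2M cells. Hist1h4d took its place, going from 5.72%, 7.74%, 13.6% and 17.4% to 46.8%, 48.1%, 70.2% and 61.3%. In H2A, Hist2h2ac went from 48.5%, 39.9%, 47.2% and 32.3% to 2.52%, 2.08%, 2.34% and 1.45%, and Hist1h2ae went from 22.9%, 33.7%, 24.4% and 40.8% to 78.0%, 84.8%, 79.97% and 81.1%. These shifts had the same direction in each of the 4 libraries, and in H3R26C 5-Aza Hist1h2ae already led H2A in cells with no cycle gene.

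Hist1h2bc gave 83.0%, 78.8%, 83.5% and 66.5% of the H2B UMIs in cells with no cycle gene and 30.6%, 22.6%, 18.9% and 16.3% in S and G2M cells, where it still led in all libraries but H3R26C 5-Aza. Among all H1 genes, with the replication-independent H1f0 and H1fx counted in, Hist1h1b went from 1.93%, 1.59%, 2.03% and 0.956% to 27.97%, 26.8%, 28.3% and 21.3%. Hist1h1c went from 31.9%, 27.0%, 25.3% and 21.4% to 4.72%, 5.03%, 4.29% and 4.15%. In H3, Hist1h3g was at 63.8%, 66.1%, 63.8% and 48.9% in cells with no cycle gene and 52.0%, 43.6%, 38.1% and 29.4% in S and G2M cells, where Hist1h3e took 30.9%, 29.5%, 36.0% and 45.2% and led in H3R26C 5-Aza.

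In features the state values did not use, the classes overlapped. Of the 18 genes high in the S state, 12 had an exact stem-loop in a listed transcript, 7 had a transcript running over 100 bases past it and 4 had a polyadenylation signal there. Of the 10 genes low in it, these numbers were 9, 5 and 5, and of the 23 mixed genes 17, 11 and 8. The clusters differed in make-up, with 17 of the 18 high genes on chromosome 13 against 6 of the 10 low genes, the other 4 of which lie on chromosome 3. Which transcript end gave the counts of a gene cannot be told from these files.

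The comparison of H3R26C with H3WT asks how the libraries of the mutant histone differed from those of the wild type within each treatment. With 1 library per condition, an effect of the mutant cannot be told apart from other differences between the libraries. In DMSO, the summed level of the 61 genes was lower in H3R26C by 0.16 on the log2 scale (−0.17 to −0.15), and with 5-Aza by 0.53 (−0.55 to −0.52). Without Hist1h1c the first value was −0.016. Hist1h1c was the only gene left out in this way, and other genes were also lower with DMSO, Hist1h4i among them (−1.03 on log2(CPM + 1)). In cells with no cycle gene the differences were −0.47 (−0.49 to −0.46) and −0.94 (−0.97 to −0.92), so the gap was wider there than over all kept cells. In the S state the sign differed by treatment, at 0.19 (0.15 to 0.22) with DMSO and −0.68 (−0.71 to −0.65) with 5-Aza. The DMSO value in the S state ranged from 0.067, with the phase scores computed here, to 0.54 without the 5% of cells with most UMIs.

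The sum over all kept cells mixed opposite moves. The 18 genes high in the S state summed to 279 CPM in H3WT DMSO, 315 in H3WT 5-Aza, 457 in H3R26C DMSO and 357 in H3R26C 5-Aza. The 10 genes low in it summed to 698, 530, 431 and 255 CPM. The median mitochondrial percent of the kept cells had the same order of libraries, at 3.86, 2.87, 2.76 and 2.55, and its part in these sums was not tested. Against H3WT, H3R26C was thus higher by 0.71 (0.69 to 0.73) for the high genes with DMSO and by 0.18 (0.16 to 0.20) with 5-Aza, while the low genes differed by −0.69 (−0.71 to −0.68) and −1.05 (−1.08 to −1.03). All 18 high genes were above 0 in the DMSO comparison, with a median of 0.47 against 0.0045 over all genes. The share of S-state cells was higher in H3R26C too, at 7.26% against 3.32% with DMSO and 10.97% against 4.84% with 5-Aza. The 18 genes were chosen for high levels in S-state cells in these same counts, so their common sign carries no test.

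Within cells with no cycle gene the gain of the high genes was not seen. They summed there to 190 CPM in H3WT DMSO, 165 in H3WT 5-Aza, 188 in H3R26C DMSO and 98.8 in H3R26C 5-Aza, which is −0.016 (−0.057 to 0.025) for H3R26C against H3WT with DMSO and −0.74 (−0.79 to −0.69) with 5-Aza. The low genes were also lower in H3R26C in those cells, at 738, 566, 477 and 296 CPM, or −0.63 (−0.65 to −0.61) and −0.94 (−0.97 to −0.91). Hist1h2ae shows the pattern in a single gene. It was higher in H3R26C by 1.28 (1.21 to 1.34) with DMSO and 0.65 (0.60 to 0.70) with 5-Aza over all kept cells, against −0.14 (−0.29 to 0.01) and −0.43 (−0.59 to −0.27) in cells with no cycle gene. Within the S state a gain was seen with DMSO but not with 5-Aza. There the high genes were at 0.307 and −0.624 and Hist1h2ae at 0.643 and −0.528. The part of the S-state share in the values over all kept cells was not tested.

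A fold past 2 on log2(CPM + 1) stands in for a call here. With DMSO, 3 histone genes were past it upwards in H3R26C, where 1.27% of 18487 genes were, namely Hist1h2ap (1.29), Hist1h2ae (1.25) and Hist1h4d (1.01). The gene past it downwards was Hist1h4i (−1.03; 0.389% of all genes). With 5-Aza, 1 gene was past it upwards (3.54%), Hist1h2ap at 1.31, and 9 downwards (1.83%). The lowest of the 9 were Hist1h4i (−1.83), Hist1h3g (−1.65), Hist1h2bc (−1.45), Hist2h3c1 (−1.23) and Hist2h2ac (−1.07), followed by Hist1h4h, Hist1h4j and Hist1h4c (−1.06 each) and Hist2h4 (−1.01). Of these 9 genes, 5 encode H4. Hist1h2ap shares 92.4% of its 90-base stretches with another transcript, so its level is uncertain.

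**Figure D5:**
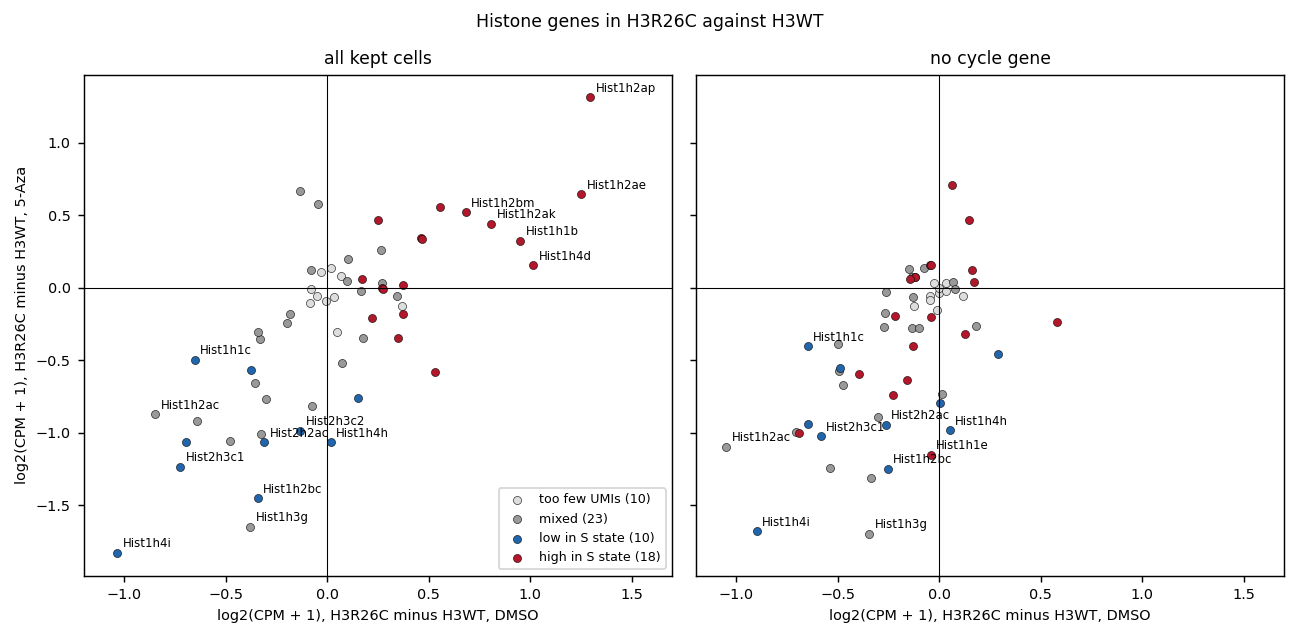
Difference of log2(CPM + 1) between H3R26C and H3WT for the 61 histone genes, with DMSO on the x axis and with 5-Aza on the y axis, over all kept cells at the left and in cells with no cycle gene at the right, coloured by class. At the left the red genes lie right of 0 and the blue genes mostly lower left, with Hist1h4i at −1.03 and −1.83, and at the right the red genes no longer lie to one side.

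Hist1h4i was lower in H3R26C in each set of cells compared. Without a pseudocount its log2 difference was −1.04 (−1.07 to −1.01) with DMSO and −1.84 (−1.89 to −1.80) with 5-Aza over all kept cells. In cells with no cycle gene it was −0.90 (−0.95 to −0.86) and −1.69 (−1.75 to −1.63), and in the S state −1.08 (−1.30 to −0.85) and −1.75 (−1.95 to −1.56). Hist1h3g was at −0.38 (−0.44 to −0.33) and −1.70 (−1.77 to −1.62) over all kept cells, and at −0.35 and −1.75 in cells with no cycle gene. Hist1h2bc was at −0.35 and −1.499 over all kept cells and at −0.26 and −1.28 in cells with no cycle gene.

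Hist1h1c differed from the other low genes in treatment. Its difference over all kept cells was −0.65 (−0.68 to −0.63) with DMSO and −0.50 (−0.53 to −0.47) with 5-Aza, so it did not widen with 5-Aza. Hist1h1e in cells with no cycle gene differed by −0.042 (−0.10 to 0.01) with DMSO and by −1.17 (−1.26 to −1.09) with 5-Aza. By type, H3R26C against H3WT was −0.058 and −0.29 for H1, 0.67 and 0.38 for H2A, −0.23 and −0.95 for H2B, −0.29 and −1.19 for H3, and −0.61 and −1.31 for H4, with DMSO and with 5-Aza over all kept cells. H2A was the only type whose sum was higher in H3R26C, and in cells with no cycle gene it was lower there, by 0.23 and 0.70. Hist1h2ae alone gave 39.9% and 60.85% of the H2A UMIs of H3WT and H3R26C with DMSO, and 61.8% and 74.8% with 5-Aza. The other H2A genes did not share 1 direction. On log2(CPM + 1), Hist2h2ac was at −0.31 with DMSO and −1.07 with 5-Aza, and Hist1h2ap at 1.29 and 1.31.

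The comparison of 5-Aza with DMSO asks how the libraries of each genotype differed by treatment, and it shares its libraries with the comparison above. Differentiation, other effects of 5-Aza and the time in culture cannot be told apart in it. In H3WT the 61 genes differed by −0.20 (−0.21 to −0.19) over all kept cells and in H3R26C by −0.57 (−0.59 to −0.56). The H3R26C value minus the H3WT value was −0.373, and in cells with no cycle gene, with −0.32 and −0.79, it was −0.47. By type, 5-Aza against DMSO was −0.26 in H3WT and −0.49 in H3R26C for H1, 0.27 and −0.024 for H2A, −0.27 and −0.99 for H2B, −0.048 and −0.95 for H3, and −0.30 and −0.99 for H4. No histone gene was past 2-fold in H3WT in either direction (3.33% of all genes upwards, 0.184% downwards). In H3R26C none was past it upwards (6.38%) and 8 were downwards (2.12%). The 10 genes low in the S state had a median of −0.39 in H3WT and −1.11 in H3R26C, against 0.034 and 0.014 over all genes. All 10 had their lowest level of the 4 libraries in H3R26C 5-Aza, against 4 of the 18 high genes and 30 of all 61. The share of all genes that were lowest there was not counted, so these counts have no baseline. The 10 were also chosen for low levels in S-state cells, of which this library had the largest share, so the count carries no test.

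Within states, H3R26C also had lower histone levels with 5-Aza. In its cells with no cycle gene 10 histone genes were past 2-fold downwards (1.79% of all genes) and 1 upwards (6.74%). The lowest of the 10 were Hist1h1e (−1.51), Hist1h2bc (−1.39), Hist1h3g (−1.38) and Hist2h2ac (−1.31), and the gene upwards was Hist1h3f (1.12). In H3WT none was past it in cells with no cycle gene (3.52% of all genes upwards, 0.173% downwards). In the S state of H3R26C 6 were downwards (1.81%) and 2 upwards (5.83%), the latter Hist1h1t (2.17) and Hist3h2ba (1.69). In the S state of H3WT 3 were upwards (3.75%) and none downwards (0.66%), namely Hist1h1t (1.66), Hist1h2ag (1.17) and Hist1h3a (1.05). Hist1h1t, Hist3h2ba, Hist1h2ag and Hist1h3a were at 3.49 CPM or lower in the S state of every library. Hist1h1t was at 0 CPM there in both DMSO libraries, as were Hist1h2ag and Hist1h3a in H3WT DMSO, so these differences depend on the pseudocount. For H3R26C against H3WT in cells with no cycle gene, 1 gene was downwards with DMSO (0.276%), Hist1h2ac at −1.05, and 9 with 5-Aza (1.38%), with none upwards (1.11% and 3.45%). In the S state with DMSO 1 gene was upwards, Hist1h4d at 1.17, and 1 downwards, Hist1h4i at −1.06 (1.24% and 0.898%). With 5-Aza Hist3h2ba was upwards (1.06) and 10 genes were downwards (3.4% and 2.74%). Of these 10, Hist2h2aa1, Hist2h3c1, Hist3h2a, Hist1h3i and Hist1h2af were under 5 CPM in the S state of every library. So were Hist2h2aa1, Hist1h3i and Hist1h2an of the 6 genes downwards with 5-Aza in the S state of H3R26C. The differences of these genes depend on the pseudocount too. The summed histone level was lowest in H3R26C 5-Aza both in cells with no cycle gene (434 CPM) and in the S state (1580 CPM). This did not hold for every type or gene. Summed H2A was lowest in the S state of H3WT DMSO, at 454 CPM against 543 in H3R26C 5-Aza. Hist1h2ae was also lowest there, at 350.5 CPM against 439.5 in H3R26C 5-Aza.

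Muscle-marker cells, with at least 8 of 13 muscle genes, numbered 168 in H3WT 5-Aza and 238 in H3R26C 5-Aza and 0 in the DMSO libraries, which allows a share of up to 0.0809% of the 3710 cells of H3WT DMSO and 0.0635% of the 4727 of H3R26C DMSO. Their histone sum was 695 CPM (664 to 728) and 358 CPM (341 to 376), below the 835 and 434 CPM of cells with no cycle gene in the same libraries. Of the 61 genes, 1 was at least 2-fold higher than in cells with no cycle gene in H3WT 5-Aza (7.06% of all genes), Hist1h1d at 1.07, and 1 lower (9.58%), Hist1h4j at −1.39. In H3R26C 5-Aza none was (5.79% higher, 11.1% lower). Hist1h4i was at 150 and 48.3 CPM in the muscle-marker cells and Hist1h1c at 164 and 117 CPM. The 36, 14, 11 and 12 adipocyte-marker cells of H3WT 5-Aza, H3R26C 5-Aza, H3WT DMSO and H3R26C DMSO are few, and their sums were 1232, 596, 1320 and 1118 CPM. Their median mitochondrial percent was 6.53, 3.35, 11.7 and 6.69, above that of cells with no cycle gene in each library, and its part in these sums was not tested. In these cells Hist1h4i was at 353, 102, 387 and 299 CPM. The 10 genes low in the S state summed to 412 and 204 CPM in the muscle-marker cells and to 434 to 1143 CPM in the adipocyte-marker cells.

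Factors that make or process histone messages and histone chaperones were read beside the histone genes. None of 18 such factors and none of 21 chaperones was past 2-fold in any of the 4 comparisons over all kept cells, where 0.184% to 6.38% of all genes were in a given direction, so that few or none would be past it at that share. Slbp, which binds the stem-loop, was at 48.8, 56.5, 64.6 and 75.3 CPM. In the S state, 5 of the 18 were at least 2-fold higher in each library, where 4.74% to 6.17% of all genes were, and Slbp was higher by 2.32, 2.24, 2.11 and 2.10 on the log2(CPM + 1) scale. Of the chaperones, 12, 11, 11 and 11 were, with Asf1b, which hands H3 and H4 to other factors, at 5.82, 5.77, 5.46 and 5.46. Chaf1b, a subunit of the complex that places new H3 and H4 behind the replication fork, was at 5.18, 4.57, 5.02 and 4.43.

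Variants listed as replication-independent were read as well, a name that was not tested for each gene here. Of 11, H2afx was past 2-fold upwards in H3R26C with DMSO (1.02, where 1.27% of all genes were). Cenpa, the centromeric H3, was past it with 5-Aza (1.05, where 3.54% were) and for 5-Aza in H3R26C (1.02, where 6.38% were). H2afx and Cenpa also moved with the cycle, so the name of the list does not mean that their levels were steady over it. In the S state H2afx was higher by 4.0, 4.0, 4.2 and 3.6 and Cenpa by 5.4, 5.7, 5.2 and 4.2 on the log2(CPM + 1) scale. H2afx was at 79.2, 106, 162 and 179 CPM, in the same order of libraries as Hist1h2ae. H3f3b, which encodes the H3.3 variant placed in chromatin outside S phase too, was at 3910, 3863, 3753 and 4449 CPM. H3f3a, which also encodes H3.3, was at 1267, 1034, 1104 and 811 CPM. H3f3a was thus lowest in H3R26C 5-Aza, where H3f3b was highest. H1f0, a replication-independent H1, was at 484, 511, 453 and 636 CPM. It was highest in H3R26C 5-Aza, the library in which Hist1h1c was lowest. S and G2M cells held 726, 745, 749 and 831 CPM of H1f0, and cells with no cycle gene 459.5, 486, 388 and 540. In these data it was thus not highest in cells outside the cycle.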

How the data were processed

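Single-cell RNA counts were analysed for 4 libraries, 1 per condition. The authors made the deposited UMI counts with Cell Ranger (6.1.0 in the file headers; the submitters' processing notes list Cell Ranger 6 and Seurat 4) on a reference of build mm10. The counts are whole numbers per gene and barcode without normalization, and the filter of the study was applied here. Counts were summed over cells and divided by the summed UMIs (CPM). Ratios carry exact conditional binomial intervals, shares exact Clopper-Pearson intervals and levels exact Poisson intervals, each at 95% and for counting error only, and 3 counts were taken as the limit for a count of 0. A pseudocount of 1 CPM was used for counts of genes past 2-fold. No doublets were removed or called, and whether they had been removed before deposit is not given in the sources used here.

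The members, gene lists and classes were chosen with earlier results of these data known. Genes named with values were the 3 most counted of each histone type, the 3 highest and 3 lowest in each comparison among genes at 5 CPM or more in either library, and the 5 highest and 5 lowest in the S state. Other genes past 2-fold, Hist1h1d, Hist1h1t and the genes near the UMI minimum were added after their values were seen. Gene positions and stem-loops came from GENCODE M21, promoters from RefSeq on GRCm38.p6. The human transgene is not in the reference and was not measured. The histone message factor Zcchc6 was not found under that symbol. Work used Python 3.11.15, numpy 2.4.6, pandas 2.3.3, scipy 1.17.1, scanpy 1.11.5, matplotlib 3.10.9, R 4.3.3 and edgeR 4.0.16 (TMM factors only), and the scripts were tested on simulated data. Alternatives were other cell filters, state gates, scalings, pseudocounts and UMI minimums, phase scores computed with scanpy, and sums without the most counted gene.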

Additional observations from a re-analysis of the deposited data

Results flagged for a closer look

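Several results had opposite directions in the settings compared, by at least 0.3 on the log2 scale each way. With 1 library per condition these differences were not tested. For H3R26C against H3WT over all kept cells, Hist1h1e was at 0.35 with DMSO but at −0.348 with 5-Aza, −0.697 apart. For 5-Aza against DMSO over all kept cells, Hist1h4d was at 0.333 in H3WT but at −0.553 in H3R26C, −0.886 apart.

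The other opposite pairs lay in the S state, where H3WT DMSO had 123 cells. For H3R26C against H3WT, summed H2A was at 0.599 with DMSO and −0.469 with 5-Aza (difference −1.07), the 18 genes high in the S state at 0.307 and −0.624 (−0.931), and Hist1h2ae at 0.643 and −0.528 (−1.17). For 5-Aza against DMSO, summed H2A was at 0.726 in H3WT and −0.342 in H3R26C (−1.07), summed H4 at 0.353 and −0.664 (−1.02), Hist1h2ae at 0.854 and −0.316 (−1.17) and Hist1h4d at 0.573 and −0.852 (−1.42). The share of S and G2M cells within the S state moved beside these values, with 86 of 123 cells in H3WT DMSO, 207 of 290 in H3WT 5-Aza, 251 of 343 in H3R26C DMSO and 539 of 836 in H3R26C 5-Aza, and its part in them was not tested. Both comparisons use the same 4 libraries, so the difference of summed H2A and that of Hist1h2ae are each 1 result listed under both. Nor are summed H2A and Hist1h2ae separate, as Hist1h2ae gave 78.05% to 84.8% of the H2A UMIs of S and G2M cells.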

How the results depend on the processing

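No paired analysis was possible because there are 4 libraries for 4 conditions, which also means that no library could be left out. Values below are log2 differences of the summed histone level, and those given lay outside the counting interval of the reported value. Of 104 such comparison values, 43 lay inside it or within 1.5 times the reported count. The reported S-state difference of 5-Aza in H3WT, 0.21, was the one that changed sign, to −0.047 with the phase scores computed here, and the cause was not tested.

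For H3R26C against H3WT over all kept cells, the DMSO value was −0.27 without the 5% of cells with most UMIs, −0.26 as a mean of per-cell CPM, −0.20 with TMM factors and −0.016 without Hist1h1c, and the 5-Aza value was −0.58, −0.60 with per-cell CPM and −0.51 with the stricter cell filter. For 5-Aza against DMSO over all kept cells, the H3WT value was −0.23 with per-cell CPM, −0.26 with TMM, −0.14 without Hist1h1c, −0.17 with the stricter filter and −0.18 with the looser one. The H3R26C value was −0.52 without the deepest cells, −0.66 without Hist1h1c and −0.53 with the stricter filter.

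In the S state, H3R26C against H3WT with DMSO was 0.54 without the deepest cells, 0.23 with TMM and 0.067 with the phase scores, and with 5-Aza it was −0.58 with TMM, −0.58 with a gate of 2 genes, −0.76 with a gate of 4 and −0.97 with the phase scores. For 5-Aza in H3WT it was 0.51 without the deepest cells, 0.17 with TMM and 0.11 and 0.28 with the gates of 2 and 4 genes, and in H3R26C −0.70 without the deepest cells, −0.70 with the gate of 4 and −1.08 with the phase scores.

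For the S state against cells with no cycle gene, in the order H3WT DMSO, H3WT 5-Aza, H3R26C DMSO and H3R26C 5-Aza, the values were 0.67, 1.502, 1.68 and 1.775 without the deepest cells, and 1.47, 1.995, 2.095 and 2.535 without Hist1h1c. They were 0.75, 1.19, 1.44 and 1.55 with the gate of 2 genes, 1.28, 1.88, 1.97 and 2.06 with that of 4, and 0.79, 1.06, 1.33 and 1.04 for phase S against G1.

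With a pseudocount of 0.1 CPM, 6 histone genes were past 2-fold upwards and 3 downwards in H3R26C against H3WT with DMSO, 3 and 18 with 5-Aza, 2 upwards for 5-Aza in H3WT, and 3 upwards and 13 downwards in H3R26C. With 5 CPM the counts that moved were 1 upwards with DMSO, 0 upwards and 3 downwards with 5-Aza, and 5 downwards for 5-Aza in H3R26C. Among classes and named genes, whose alternatives were chosen after the data were seen, 342 values stayed within the interval and 78 did not, and 8 changed sign, none by a reported difference over 0.05. Depth limits the genes under 1 CPM, the 37 S-only cells of H3WT DMSO and the adipocyte-marker cells.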

Other observations

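Cells with G2M genes only were also compared between the libraries. The 18 genes high in the S state summed there to 449 CPM (421 to 478) in H3WT DMSO, 625 (600 to 651) in H3WT 5-Aza, 1143 (1110 to 1178) in H3R26C DMSO and 667 (654 to 681) in H3R26C 5-Aza. The 10 genes low in it summed to 429, 335, 323 and 205 CPM. Hist1h1b was at 80.6, 128.5, 278 and 118 CPM and Hist1h1e at 169, 162, 319 and 155 CPM, each highest in H3R26C DMSO. In the S state both genes were highest in that library too, at 628 and 516 CPM. The numbers of cells with G2M genes only were 70, 210, 158 and 725.

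In adipocyte-marker cells some genes of the Hist2 cluster stood above their level in cells with no cycle gene. Hist2h3c1 was at 40.01, 27.9, 34.4 and 7.54 CPM in them, against 13.8, 9.003, 8.85 and 3.92 CPM in cells with no cycle gene, in the order H3WT DMSO, H3WT 5-Aza, H3R26C DMSO and H3R26C 5-Aza. Hist2h2ac was at 57.8, 61.9, 82.6 and 11.3 CPM, against 32.4, 20.5, 26.8 and 10.2. These cells numbered 11, 36, 12 and 14 and held 297, 796, 325 and 158 UMIs of all 61 genes together. Each level thus rests on few cells and few UMIs, fewest in H3R26C 5-Aza, and no counting interval was taken for single genes in them. The median mitochondrial percent of the adipocyte-marker cells was 11.7, 6.53, 6.69 and 3.35, against 3.94, 2.95, 2.90 and 2.76 in cells with no cycle gene. Its part in these levels was not tested. Hist1h3g ran the other way, at 4.45, 41.8, 10.3 and 3.77 CPM against 62.7, 61.2, 49.1 and 18.2 CPM.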
